A study of Homo sapiens with 47 samples.

Results

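This account describes the chromatin of a 160 kb stretch of human chromosome 5, 149420001 to 149580000 on the genome build hg19, which holds the neighbouring receptor genes CSF1R and PDGFRB. Its members are all deposited open-chromatin peaks, H3K27ac peaks, H3K9me3 islands and intervals of one deposited table that overlap the stretch, 189 of 2308140 listed features. They comprise 156 ATAC-seq peaks, 22 H3K27ac peaks, 10 H3K9me3 islands and 1 table interval. The stretch was chosen by position, but after peaks, islands and the table value there had been seen, so the counts and lengths within it are given as a description, without a test.

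PDGFRB encodes the beta receptor for platelet-derived growth factor, a receptor tyrosine kinase of pericytes, smooth muscle cells and fibroblasts. Raised PDGFRB is a known feature of some melanoma cells that have become resistant to inhibitors of mutant BRAF. CSF1R encodes a related tyrosine kinase, the receptor for colony-stimulating factor 1 and interleukin 34, which is known above all from macrophages and their precursors. Both genes are read from the minus strand, so that each starts at its end of higher coordinate. In RefSeq's gene order CSF1R comes directly before PDGFRB, with HMGXB3 next to CSF1R on the outer side and CDX1 beyond PDGFRB. The gene tables used here are of a later build than the peak lists. Regions are therefore given by hg19 position, and none was assigned to a promoter, an exon or one of these genes.

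The libraries came from the melanoma lines 451Lu and WM983B. ATAC-seq, in which the transposase Tn5 cuts accessible DNA, was listed for parental and vemurafenib-resistant cells of both lines, vemurafenib being an inhibitor of mutant BRAF. In 451Lu it was also listed for cells with extra c-JUN and c-FOS, the subunits of the transcription factor AP-1 (AP1), against a vector control (vector). Further 451Lu groups carried a hairpin RNA against p150 (shp150) against an NT control (NT), or both changes (shp150_AP1) against the matching double control (vector_NT). Each of these 10 groups had 2 libraries, 20 in all. Acetylation of histone H3 at lysine 27 (H3K27ac), found at active regulatory DNA, was listed in 1 library for parental and for resistant cells of each line. The samples name a second H3K27ac replicate for each of these groups, without a peak list used here. H3K9me3, a mark of heterochromatin, was listed in 2 libraries each of 451Lu parental, resistant, vector_NT and shp150_AP1 cells. Nothing in the labels says that replicates were separate cultures, or whether a resistant population is 1 clone. Lines were not checked against melanocyte markers, since genes were not placed on hg19.

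The start sites of the 2 genes are shown first, because the engineered cells carry extra AP-1 and the AP-1 letters occur in one of them. These are the 250 bases before each start listed by RefSeq on GRCh38.p14, minus strand, written in the direction of transcription, with matches to the motifs searched in capitals. RefSeq's table held 1 entry for PDGFRB and 2 for CSF1R.
PDGFRB: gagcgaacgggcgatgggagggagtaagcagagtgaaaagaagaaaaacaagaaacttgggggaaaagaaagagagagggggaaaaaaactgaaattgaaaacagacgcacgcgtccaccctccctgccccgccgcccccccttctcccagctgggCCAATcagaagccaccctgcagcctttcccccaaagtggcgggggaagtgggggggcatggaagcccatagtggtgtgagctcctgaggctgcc
CSF1R, first entry: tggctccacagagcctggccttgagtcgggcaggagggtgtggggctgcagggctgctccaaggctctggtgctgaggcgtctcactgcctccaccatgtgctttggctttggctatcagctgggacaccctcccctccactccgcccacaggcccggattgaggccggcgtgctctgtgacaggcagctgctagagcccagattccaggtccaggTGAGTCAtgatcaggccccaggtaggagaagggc
CSF1R, second entry: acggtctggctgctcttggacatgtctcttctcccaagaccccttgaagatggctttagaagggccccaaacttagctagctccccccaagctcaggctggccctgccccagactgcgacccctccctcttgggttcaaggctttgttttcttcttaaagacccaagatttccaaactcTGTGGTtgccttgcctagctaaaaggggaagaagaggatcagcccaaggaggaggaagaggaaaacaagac

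The motifs were searched on both strands, and the matches found did not overlap one another. The capitals in PDGFRB are CCAAT, bases 94 to 90 before the start, which 32.0% of 35116 promoter entries of the same length contain. Those in the first CSF1R entry are the AP-1 letters TGANTCA, bases 34 to 28 before the start, found in 6.57% of entries. The second CSF1R entry holds TGTGGT, the core letters bound by RUNX factors, 71 to 66 bases before its start, as do 11.0% of entries. The other letters searched (TGACGTCA of the cyclic AMP response element, GGAATG of TEAD factors and CACGTG of the E-box) were not in these 3 stretches. A match is a string of letters and no evidence of binding.

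Merged over the 20 ATAC-seq libraries, the peaks formed 23 regions. Of these, 3 were called (listed with at least 1 shared base) in all 20 libraries, that is 13.0% of the regions here against 11.7% of all 208860 merged regions of the genome. Another 7 (30.4%, against 25.5% over the genome) were called in a single library, 6 of them in WM983B. By line, 13 regions (56.5%) were shared, 2 (8.70%) were found only in 451Lu and 8 (34.8%) only in WM983B. Over the genome these shares were 47.3%, 15.1% and 37.5%, so the spread over the lines was near the background. The WM983B lists held 129339 to 147988 peaks with smallest scores of 1.3, against 42898 to 94550 peaks and 2.0 in 451Lu. Calls of the 2 lines thus rest on unlike lists.

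**Figure D1:**
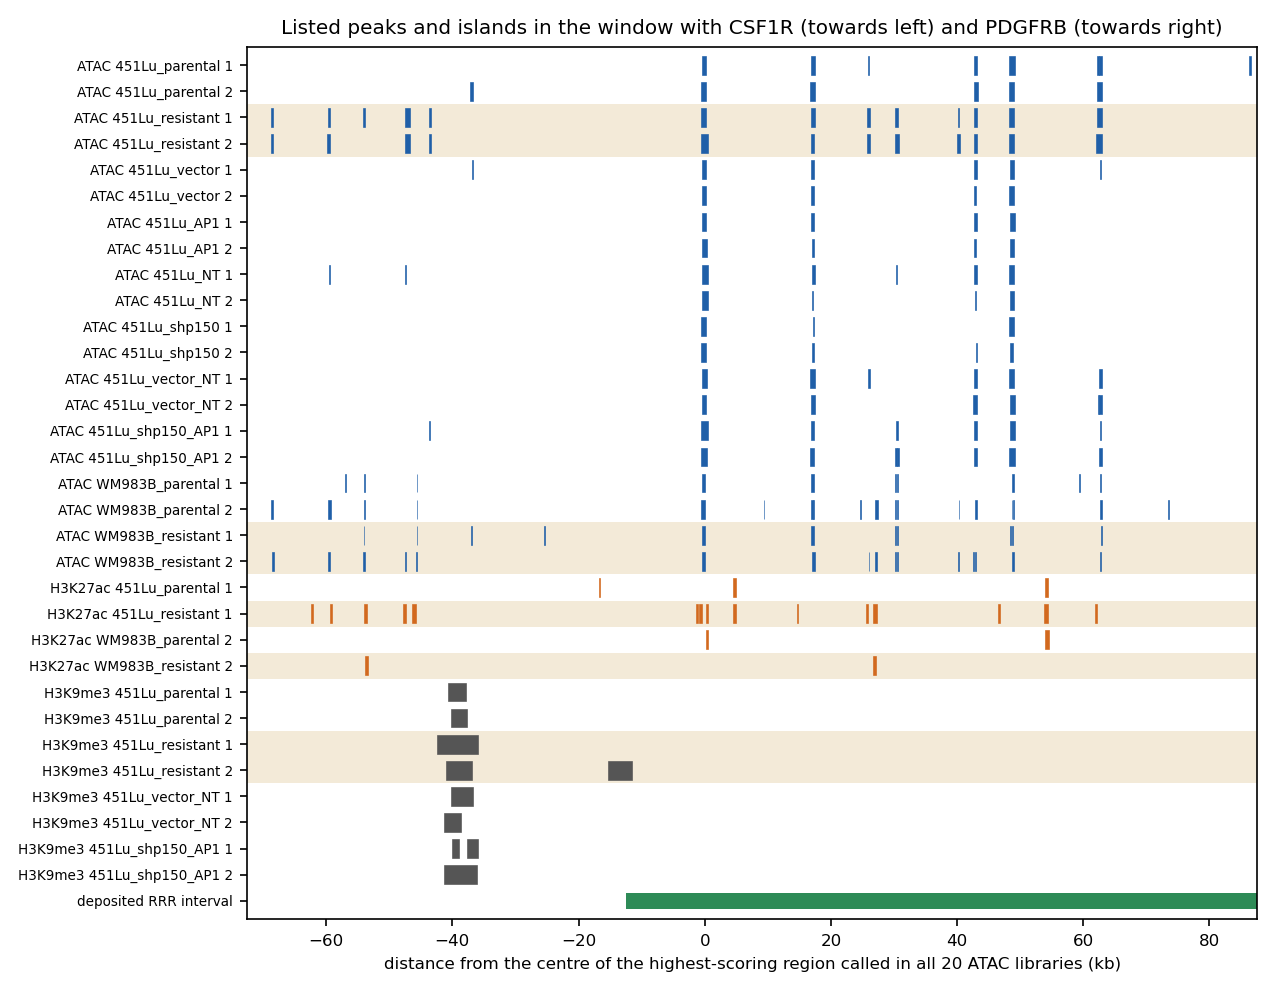
Positions of listed ATAC-seq peaks (blue), H3K27ac peaks (orange), H3K9me3 islands (grey) and the interval of the deposited table (green), one row per library, resistant cells shaded; the x axis is the distance in kb from the region called in all 20 ATAC-seq libraries with the highest median score. In 451Lu the resistant rows carry the most ATAC-seq and H3K27ac marks, while 3 ATAC-seq columns run through all 20 libraries.

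The 3 regions listed in every library are described first. Scores are the authors' values from their peak caller, of a scale not stated. Scores of different lists are set side by side as a description, and no difference between lists is read from them. The region chr5:149491898-149493036 had scores from 16.3 to 61.7 (median 31.8), and its peak stood between 1.04% and 21.5% from the top of its own list in the 16 451Lu libraries. In the WM983B lists that place ranged from 2.14% to 12.3%. The region chr5:149540661-149541604 scored from 7.80 to 36.8 (median 22.5) and chr5:149509114-149509952 from 4.49 to 34.1 (median 15.1). These 3 sites were thus listed as open in both lines, in parental and resistant cells and in each engineered group.

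The region chr5:149535037-149535753, was called in 17 libraries, 15 of the 16 from 451Lu and 2 of the 4 from WM983B. The libraries without it were shp150 replicate 1 and both WM983B libraries numbered 1. The region chr5:149554530-149555489 was called in 13, among them all of the parental, resistant, vector_NT, shp150_AP1 and WM983B libraries. Outside these it was listed in vector replicate 1 alone, so it was absent from 7 of the 8 libraries of the single changes and their controls. Those 8 lists were shorter, 42898 to 56824 peaks against 79670 to 94550 in the other 451Lu lists, and the part of list length in this was not tested.

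**Figure D2:**
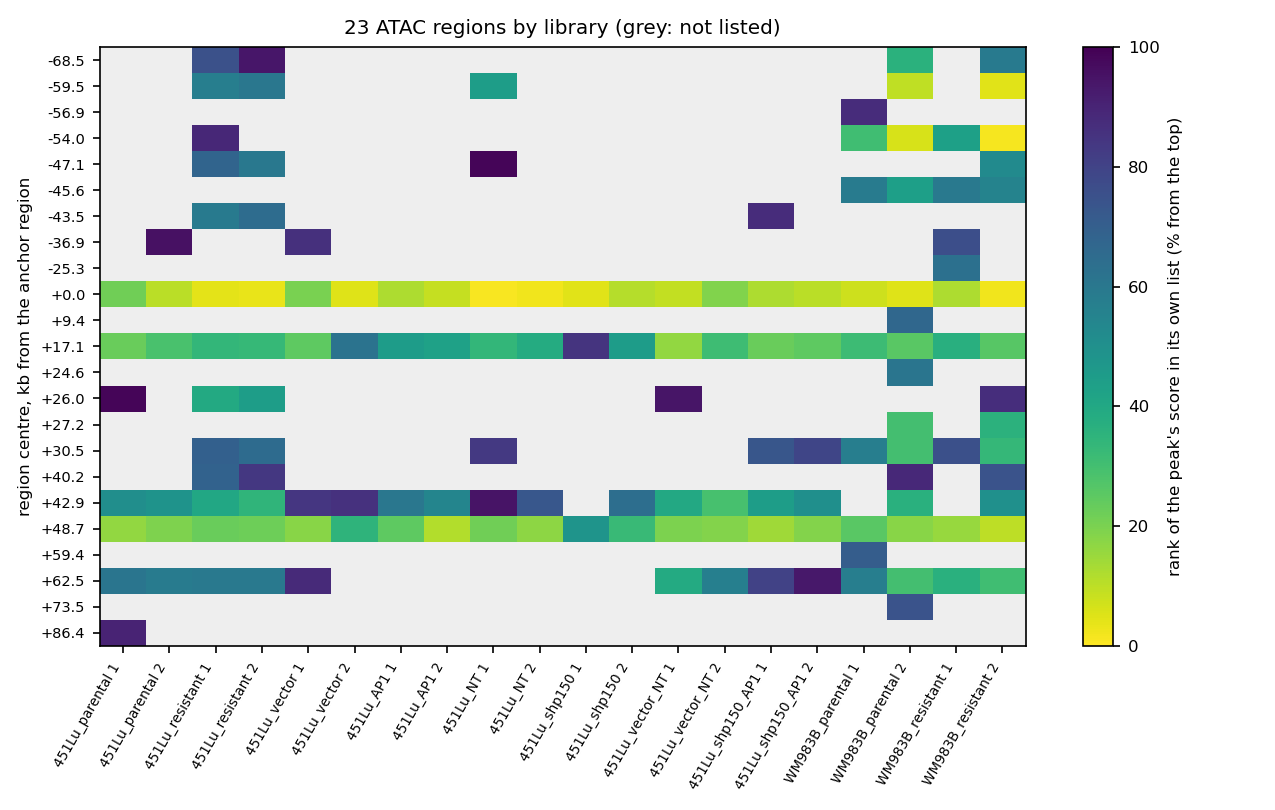
Each of the 23 ATAC-seq regions (rows, by kb from the region with the highest median score) in each library (columns), coloured by the place of its peak's score in that library's own list in percent from the top; grey means not listed. The row at 0 kb lies within the top 21.5% of each list, and the rows below 0 kb are filled mainly in 451Lu resistant and WM983B libraries.

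The first comparison asked how the locus differed between resistant and parental 451Lu cells. Resistant cells had 12.5 ± 0.707 listed ATAC-seq peaks (SD, n = 2) and parental cells 7 ± 1.41 (SD, n = 2). Open chromatin covered 6617 and 7273 bp in the resistant libraries and 3804 and 4186 bp in the parental ones, so the groups did not overlap. The means were 6945 ± 464 bp and 3995 ± 270 bp (SD, n = 2), a ratio of 1.74, where the covered length of the whole genome differed by a ratio of 1.07. With 2 libraries against 2, an exact permutation cannot give a two-sided p under 0.333.

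**Figure D3:**
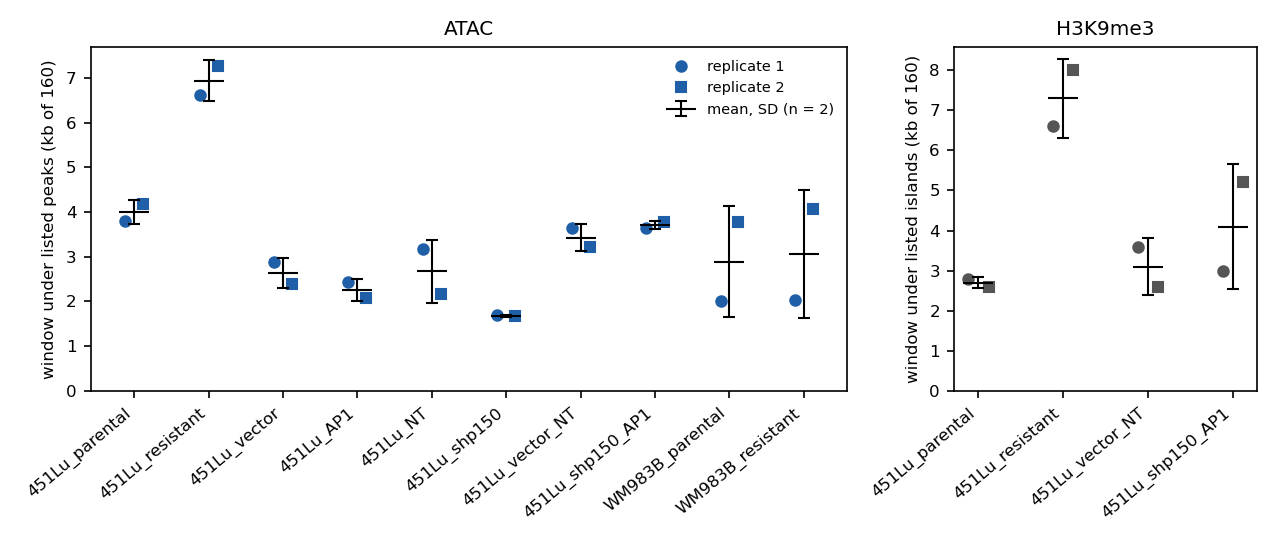
Length of the 160 kb window under listed ATAC-seq peaks (left) and H3K9me3 islands (right) in kb, for each library, with the group mean and SD (n = 2). The 451Lu resistant libraries, at 6617 and 7273 bp of open chromatin, lie above the other 18, and in both panels they lie above the parental ones.

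Of 15 regions in this comparison, 6 (40%) were gained, meaning called in both resistant and in neither parental library, where 9.79% of regions were gained over the genome. None was lost, against 3.96% over the genome, which for 15 regions is near the background. In all 4 libraries 5 were called. Without parental replicate 1 or without parental replicate 2 the count of losses was 1. Gains numbered 6 or 7 without any 1 of the 4 libraries.

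Of the gains, 4 lay below the deposited table's interval, towards the CSF1R side of the window. The region chr5:149432684-149433163 had resistant scores of 11.2 and 10.2, and chr5:149448759-149449092 had 10.5 and 9.17. The region chr5:149444953-149445786, the widest of the 6, had 8.72 and 10.3, and chr5:149423706-149424177 had 7.19 and 4.53. These were middling to low scores, 57.2% to 93.9% from the top of the resistant lists.

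The other 2 gains lay inside the interval. They were chr5:149522601-149523274, with scores of 8.29 and 9.07, and chr5:149532486-149532921, with 8.47 and 5.57. A further region, chr5:149518199-149518734, scored 17.5 and 15.4 in resistant cells, above each gain, but was also listed in parental replicate 1 with a score of 3.20 and so did not count as one. The site chr5:149438368-149438663 was listed in resistant replicate 1 alone within 451Lu, with a score of 5.08.

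**Figure D4:**
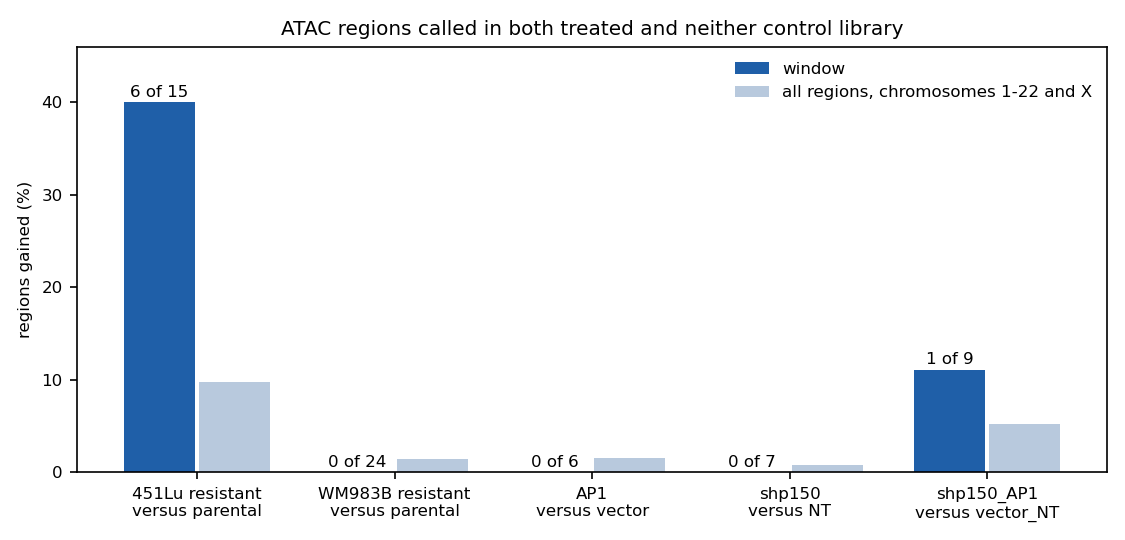
Share of ATAC-seq regions called in both treated and neither control library, in percent of the regions in the window (dark) and of all regions on chromosomes 1 to 22 and X (light), for the 5 comparisons. The resistant 451Lu bar is 6 of 15 regions and the combined engineered cells' bar 1 of 9, and the other 3 are at 0.

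The 6 sites gained in resistant 451Lu cells were not confined to those cells. In WM983B, 5 of them were called in at least 1 library, and chr5:149522601-149523274 in all 4. The WM983B lists were longer than any 451Lu list, and the part of list length in these calls was not tested. Among the 12 engineered and control libraries of 451Lu, 4 of the 6 were called at least once. NT replicate 1, a control, listed 3 of them, with scores of 11.4 at 149432684, 3.37 at 149444953 and 5.80 at 149522601. Only chr5:149423706-149424177 and chr5:149532486-149532921 were found in no 451Lu library other than the resistant pair. How many of all gains over the genome were called in these other libraries was not computed, so these counts have no background.

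Extra c-JUN and c-FOS alone went with no gained or lost region among the 6 of that comparison, where 1.60% were gained and 2.86% lost over the genome. With so few regions, no gain or loss is near the background. Covered length was 2435 and 2079 bp in AP1 and 2877 and 2396 bp in vector libraries, and the groups overlapped. Without vector replicate 2 the losses numbered 2, at 149455286 and 149554530. The hairpin against p150 alone gave none of 7 regions gained or lost, against 0.748% and 7.51% over the genome. For 7 regions that too is near the background.

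The shp150 libraries had the least open chromatin of the locus, 1693 and 1665 bp, against 3169 and 2169 bp in NT. The ratio of means, 0.629, went with a ratio of 0.714 over the genome, so that shorter lists moved with it. With lists of equal length the difference of -990 bp became -594 bp. It was -490 bp without NT replicate 1 and -1490 bp without NT replicate 2. Without NT replicate 2 the losses numbered 3, the same 3 sites that NT replicate 1 shared with resistant cells, and without shp150 replicate 2 the loss was 1.

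The combined cells gained 1 of 9 regions (11.1%), against 5.19% over the genome, and lost none, against 3.26%. With only 9 regions, neither count stands apart from the background. The gain was chr5:149522601-149523274, with scores of 6.84 and 6.21, 1 of the 6 sites gained in resistant cells. The site chr5:149448759-149449092 was listed in shp150_AP1 replicate 1 alone of the pair. The remaining 4 resistant gains were listed in neither shp150_AP1 library. Covered length was 3654 and 3784 bp in shp150_AP1 and 3648 and 3213 bp in vector_NT cells, a difference of 288.5 bp that was 45 bp with lists of equal length, 71 bp without vector_NT replicate 2 and 506 bp without vector_NT replicate 1. The gains numbered 2 without shp150_AP1 replicate 1 or replicate 2, and the losses 1 without vector_NT replicate 1 or replicate 2.

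In WM983B no region met the rule for a gain or a loss between the libraries labelled resistant and parental. None of 24 regions was gained or lost, against 1.47% and 1.22% over the genome, and 8 were called in all 4 libraries. With genome shares so low, no gain or loss among 24 regions is near the background. Gains numbered 3 without resistant replicate 1 or replicate 2, and losses 3 without parental replicate 1 and 2 without parental replicate 2. Covered length was 2041 and 4077 bp in resistant and 2012 and 3770 bp in parental libraries, so the libraries sorted by replicate number and not by drug response. The difference of means was 168 bp, and within the numbers it was 29 bp for number 1 and 307 bp for number 2. Leaving out 1 library, which breaks these pairs, gave -850 bp without resistant replicate 2, -711 bp without parental replicate 1, 1186 bp without resistant replicate 1 and 1047 bp without parental replicate 2.

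By number, 5 of the 24 regions (20.8%) were called in both libraries numbered 2 and in neither numbered 1, against 8.69% over the genome. None showed the reverse, against 3.88%. The 5 were at 149423785, 149432790, 149519535, 149532668 and 149535255, of which 3 coincide with gains of resistant 451Lu cells. How often such regions coincide with those gains over the genome was not computed. At 149432790 the scores were 33.5 in resistant and 21.7 in parental replicate 2, and the site chr5:149438368-149438663 scored 41.7 and 25.6 there. In the libraries numbered 1 that site was listed with scores of 7.61 and 10.6. In WM983B resistant replicate 2 that last site stood 1.40% from the top of the list, higher than any other of the locus. What the numbers stand for is not given, so a batch and a state of the cells cannot be told apart.

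H3K27ac differed most in number between resistant and parental 451Lu cells. The resistant library listed 15 peaks over 6255 bp and the parental library 3 over 1241 bp. Of 16 merged regions 13 (81.2%) were called in resistant cells only, against 50.3% over the genome, 1 in parental cells only, against 19.9%, and 2 in both. With 1 library a group there is no replicate check. The whole resistant list was 1.60 times as long as the parental one and reached a lower smallest score, 1.44 against 1.89. With lists of equal length there were 7 resistant and 3 parental peaks, so the difference of 12 peaks became 4. Of 9 merged regions 6 (66.7%) were then resistant only, against 33.4% over the genome, 2 (22.2%) parental only, against 32.9%, and 1 was in both.

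The strongest resistant-only H3K27ac peaks were at chr5:149519154-149519700 with a score of 29.4, chr5:149438539-149439061 with 19.3 and chr5:149446016-149446645 with 14.5. The peak at chr5:149496903-149497358 was the highest of the locus in both 451Lu lists, with a score of 42.1 in resistant and 22.5 in parental cells, 5.15% and 14.2% from the top. The nearest ATAC-seq region of any library lay 3866 bp away. Beside the constantly open chr5:149491898-149493036, resistant cells listed 3 peaks, at 149491052, 149491569 and 149492614, with scores of 4.99, 3.66 and 5.64, and parental 451Lu cells none. With lists of equal length the resistant list ended at a score of 6.04, and none of these 3 peaks was left.

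Resistant H3K27ac overlapped 2 of the 6 gained ATAC-seq regions, those at 149432684 and 149444953, with scores of 4.58 and 4.61. That is 33.3% of the gains, against 5.64% of the 11191 gains over the genome. The count was 0 of 6 both with lists of equal length and at a score of at least 5, against 4.31% and 4.81% over the genome. The other 4 gains lay 2113 to 6013 bp from the nearest such peak. Over all 4 H3K27ac libraries, 8 of 16 merged regions (50%) overlapped an ATAC-seq region of some library, as did 35.4% of all 93928.

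WM983B listed only 2 H3K27ac peaks in resistant and 2 in parental cells, at different places. The resistant ones, with scores of 19.4 and 8.38, fell on the merged regions chr5:149438539-149439061 and chr5:149519154-149519700, 2 of the 3 best resistant-only sites of 451Lu. Neither parental library listed these 2 regions. The parental ones, with scores of 2.86 and 3.64, lay at 149492614 and 149546228. Over the genome 21.2% of WM983B regions were resistant only and 43.8% parental only, and the resistant list was the shorter one (36022 against 50336 peaks). Both WM983B libraries carry number 2. Both shared sites overlapped regions that WM983B ATAC-seq listed in parental as well as resistant replicate 2. The share of H3K27ac regions over the genome listed in both resistant and neither parental library was not computed.

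H3K9me3 occupied 1 place in the window in all 8 libraries. Parental islands ran from 149451801 to 149454600 and from 149452201 to 149454800, with 130 and 120 ChIP reads against 79 and 75 input reads. Resistant islands ran from 149450001 to 149456600 and from 149451401 to 149455600, with 300 and 182 ChIP reads against 260 and 136. The authors' fold of ChIP over input was 2.39 and 2.15 in parental and 1.51 and 1.96 in resistant cells. At this place resistant islands were thus wider and of lower fold, without overlap between the groups in either measure. Each fold is taken over its own island's span, so width and fold are not separate measures. No fold over a common stretch was computed. Resistant lists held fewer islands over the genome, 40010 and 50181 covering 288 and 267 Mb, against 61888 and 70879 covering 327 and 337 Mb. Mean island length was thus greater in resistant lists there too, and the share of islands that differ in this way was not computed.

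The merged island was called in every library, so it was neither gained nor lost, while over the genome 3.03% of regions were gained and 17.8% lost in resistant cells. Resistant replicate 2 had a second island from 149477201 to 149481000, with a fold of 1.21 and a false discovery rate of 0.0190, and it counted as 1 gain without resistant replicate 1. Islands covered 7300 ± 990 bp of the window in resistant and 2700 ± 141 bp in parental cells (SD, n = 2), a ratio of 2.70, where the genome-wide ratio was 0.836. The difference of 4600 bp was 2700 bp with a false discovery rate of at most 0.01 and a fold of at least 1.5.

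In vector_NT cells the folds of this island were 2.54 and 2.12, with 292 and 143 ChIP reads. The shp150_AP1 libraries had folds of 3.17 and 2.30 at a split island in replicate 1 and 1.97 at 1 island in replicate 2. The samples include no input of shp150_AP1 replicate 1, and which input its folds rest on is not given. No region was gained or lost, against 1.86% and 13.9% over the genome, but the window held only 1 merged region in this comparison. Covered length, 3000 and 5200 bp against 3600 and 2600 bp, overlapped between the groups, and the difference of 1000 bp turned to -100 bp without shp150_AP1 replicate 2. Of the 23 ATAC-seq regions 1 (4.35%), chr5:149455286-149455763, overlapped an island of any library, against 19.3% over the genome, and it was listed in parental replicate 2, vector replicate 1 and WM983B resistant replicate 1. None of the 6 sites gained in resistant cells overlapped an island, where 24.5% of gains over the genome did. Since only 1 of the 23 regions here did, this is not read as a trait of the gains.

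The authors' deposited table holds 1848 intervals in 451Lu, and 1 of them overlaps the window. It is given as 149480000 to 149560000. The second value was read as the start of a last step of 20 kb, which the source does not state. So read, it spans 100 kb and takes in 14 of the 23 ATAC-seq regions. The regions at 149565930 and 149578800 lie beyond the end as given. In the authors' deposited table its log2 fold change is 8.71 with a standard error of 0.31, and its adjusted p is 4.79e-176. In that table it ranks 2 of 1848 by p-value, 3 by the size of the log2 fold change whatever its sign, and 181 by mean normalized count. That count is 12033 in the authors' deposited table, against a median of 1082.

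**Figure D5:**
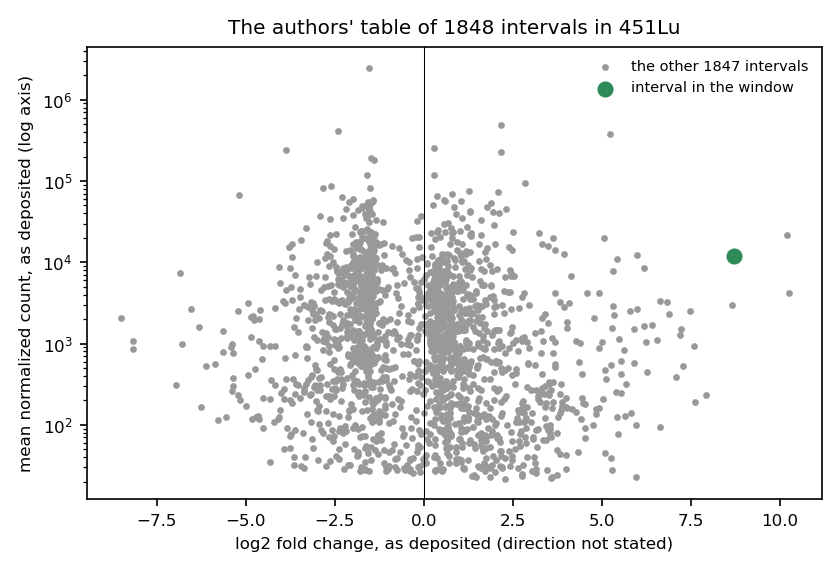
The authors' deposited log2 fold change (x axis) and mean normalized count (y axis, log scale) of each of the 1848 intervals in 451Lu, the interval of this locus in green. It lies at 8.71 on the x axis, the third in size whatever the sign, and its mean count of 12033 exceeds the median.

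The table names neither its assay nor its libraries, nor the group that a positive value favours. As a guide to its sign, the other intervals were set beside the H3K27ac lists. Of 950 other positive intervals in the authors' deposited table, 757 held more resistant-only than parental-only H3K27ac regions and 32 fewer. Of 894 negative ones these counts were 384 and 261. The interval of this locus held 8 resistant-only and no parental-only H3K27ac regions, and 2 gained and no lost ATAC-seq regions. For ATAC-seq, 529 positive intervals held more gains and 72 more losses, and 273 negative ones more gains and 173 more losses. Intervals of both signs thus leaned to resistant cells, the positive ones by more. The genome as a whole leaned the same way. Of its 451Lu H3K27ac regions 50.3% were resistant only and 19.9% parental only, and of its ATAC-seq regions 9.79% were gained and 3.96% lost. Per 100 kb, the median positive interval held 2.14 resistant-only H3K27ac regions and 0.667 gained ATAC-seq regions. The median negative interval held 1 resistant-only and 0.652 parental-only H3K27ac regions and 0 gained ATAC-seq regions.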

How the data were processed

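Of 47 samples, 32 had a processed file used here, and 15 were not analysed here. Build hg19 and the tools deepTools, SICER, MACS2, Bowtie2, Picard and STAR 2.5.3 appear in the submitters' processing notes. Which tool made which list, and any trimming, duplicate removal or Tn5 shift, is not given in the sources used here. Deposited ATAC-seq and H3K27ac lists give 1 score per peak. The deposited H3K9me3 islands give read counts of ChIP and input, their fold, a p-value and an FDR, the false discovery rate. The deposited interval table holds the authors' log2 fold change, test score and p-value, and a mean normalized count treated as signal.

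Chromosomes 1 to 22 and X were used, with Python 3.11.15, numpy 2.4.6 and scipy 1.17.1. The 4 lists of a comparison were merged into regions, a region counting as called where at least 1 bp was listed. Gained means called in both treated and neither control library, lost the reverse. The code was tested on simulated data. Peak lists hold no depth, which is unknown. The locus, the named regions (all gained or lost, and the constant ones of highest median score), motifs and gene lists were chosen with earlier results of these data known. The planned lists of pathway and marker genes, and the search for genes of like pattern, were not run, since no gene positions of the lists' build were used. Lists of 2 libraries are compared without a model, so p-values were not attached to regions.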

Additional observations from a re-analysis of the deposited data

How the results depend on the processing

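Nothing says what the replicate numbers share. With the replicate number as a block, a region gained by the rule is gained within both numbers by definition, so the counts stay, and the mean difference in covered length is the same by construction, such as 2950 bp for resistant against parental 451Lu cells (2813 and 3087 bp within the numbers). Both numbers gave the direction of the mean in each comparison except H3K9me3 in shp150_AP1 cells (-600 and 2600 bp). With 2 pairs no exact sign test can pass a threshold. Of 167 recomputed values 3 reversed. Of counts, 23 moved, either by over 1.5 times or between 0 and a higher count. Of 48 covered lengths of the same direction, 18 moved by over 1.5 times. The resistant 451Lu gains numbered 5 to 7, and covered length stayed higher in resistant cells under each alternative run. The gained sites were not the same throughout. At a score of at least 5, chr5:149423706-149424177 dropped out, with a score of 4.53 in resistant replicate 2. It also dropped out with lists of equal length. The region chr5:149518199-149518734, with a parental score of 3.20, became a gain at a score of at least 5. H3K27ac counts depended on the lists: resistant minus parental peaks in 451Lu were 12, but 7 at a score of at least 5 and 4 with lists of equal length, and in WM983B 0, 2 and 2. With 50% of a region covered, 1 H3K9me3 region was gained in resistant cells. Within WM983B replicate number 1, 3 regions were gained and 2 lost, and within number 2, 3 and 3, which, like the block and the overlaps under other H3K27ac lists, was chosen after seeing the data. For H3K9me3 in resistant cells the difference of 4600 bp was 2700 bp under the stricter limits.

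Leaving out 1 library at a time gave, for resistant against parental 451Lu cells, 6 to 7 gains, 0 to 1 losses and a difference of 2622 to 3278 bp. WM983B gave 0 to 3 gains, 0 to 3 losses and -850 to 1186 bp. AP1 gave 0 to 2 losses and -620 to -139 bp, shp150 0 to 3 losses and -1490 to -490 bp, and shp150_AP1 1 to 2 gains, 0 to 1 losses and 71 to 506 bp. H3K9me3 gave 0 to 1 gains in resistant cells and -100 to 2100 bp in shp150_AP1 cells. The depth behind the peak lists is unknown, so an unlisted region is not shown to be closed.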
